A study of Rattus norvegicus with 5 samples.

Results

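The genes described here are those of the potassium channel subunits, taken as every gene whose single symbol in the array's annotation starts with Kcn or Hcn. The rule found 54 genes with 82 probe sets, out of 4736 genes with 1 symbol on the array. All 54 are Kcn genes: the annotation used here pairs no probe set with an Hcn symbol, so the pacemaker channels that the rule also covers have no value here. RNA came from the hippocampus of rats labelled P5, 1 array per sample. The control diet group has 2 arrays, the fetal alcohol exposed group 2 and the isocaloric diet group 1. An isocaloric diet is a feeding control for alcohol diets. The labels give no strain, sex, alcohol dose or timing of exposure, and do not say whether a sample is 1 animal or a pool, so the p-values measure only the spread between these samples, which may be technical.

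Potassium channels let potassium ions leave or enter the cell and so set the resting potential, the shape of the action potential and the rate of firing. The voltage-gated (Kv) subunits open on depolarisation, the calcium-activated subunits couple firing to calcium entry, the inward rectifiers (Kir) and the two-pore leak channels work near rest, and beta and Kcne subunits modify the others. In the hippocampus Kv4 subunits carry the transient current of pyramidal cell dendrites, Kv3 subunits allow fast firing of interneurons and Kv7 subunits carry the M-current that muscarinic receptors close.

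Many of the potassium channel probe sets gave low intensities. Of the 54 genes, 30 had a brightest probe set at or above the 40th percentile of the mean log2 intensity, the level from which probe sets were tested, and 24 lay under it. Counted by probe set, 46.3% of the potassium channel probe sets were above this level, against 62.5% of all probe sets with 1 symbol. The brightest probe set stood for a gene, and 9 genes had even that one below 10.6 on all 5 arrays. This intensity, the 20th percentile of all values, was the offset added before taking log2. These 9 were the Kv1 genes Kcna2 and Kcna3, Kcnab3, the Kir genes Kcnj2, Kcnj6, Kcnj9 and Kcnj13, Kcnq1 and the sodium-activated Kcnt1. Kcnj6 and Kcnj9 encode subunits of the G protein-gated (GIRK) channels of neurons, and their intensities ran from 2.05 to 3.48 and from 2.55 to 6.24. Just under the level lay Kcnb2 (39.2nd percentile) and Kcnj16 (38.2nd), and just above it Kcna6 (40.7th) and Kcnc2 (41.2nd). The other genes under it were Kcna5, Kcnd3, Kcnf1, Kcnh5, Kcnh7, Kcnj5, Kcnj10, Kcnj12, Kcnj14, Kcnj15, Kcnk3, Kcnn3 and Kcns1. A low intensity can reflect the probe as well as the transcript, so levels of different genes were not compared.

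As a check of the tissue, all 8 measured general neuron markers were above the filter, with summed intensities of 4694 to 5773 over the 5 arrays. Of 4 measured markers of hippocampal excitatory neurons 2 were above it, while Slc17a7, a vesicular glutamate transporter, was at 3.15 to 5.72 and Camk2a at 8.17 to 40.6. The 4 summed to 470 and 419 with control diet, 227 and 371 after fetal alcohol and 228 with isocaloric diet. The 7 choroid plexus markers summed to 6955 and 7117, then 2615 and 1168, then 7702 in the same order, and 5 of the 7 were lower on both fetal alcohol arrays than on both control diet arrays. The 8 meninges and connective tissue markers summed to 2107 and 3012, 2154 and 1188, and 1807. Over the 5 arrays 7 interneuron markers summed to 3005 to 3562, 7 astrocyte markers to 4546 to 5049, 6 oligodendrocyte lineage markers to 589 to 680, 5 microglia markers to 288 to 523, 5 endothelium and pericyte markers to 212 to 251 and 2 blood markers to 3436 to 4856. In tissue RNA, fewer cells of a type and less RNA per cell cannot be told apart. Kcnj13, the inward rectifier that choroid plexus epithelium is known for, measured 3.30 and 1.75 with control diet, 4.18 and 1.44 after fetal alcohol and 3.89 with isocaloric diet, all below the offset. The part of these tissue markers in the differences given next was not tested.

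Which channel transcripts differ after alcohol exposure before birth was addressed by setting the fetal alcohol arrays against control diet. None of the 30 potassium channel genes tested passed the threshold: the smallest adjusted p was 0.961 (limma, Benjamini-Hochberg over 5244 probe sets). Among all probe sets the share past it was 0%. At an unadjusted p under 0.05 no channel gene passed at its brightest probe set, against 4.73% of the 3174 genes tested. The log2 differences, fetal alcohol minus control diet, ran from -0.38 for Kcnc4 to 0.42 for Kcnc2, with SEs of 0.22 to 0.36. For 27 of the 30 genes the 95% interval of the difference stayed inside a 2-fold change in either direction; the exceptions, named after their values were seen, were Kcnab1 (-0.46 to 1.17), Kcnc2 (-0.30 to 1.15) and Kcnc4 (-1.01 to 0.24). Differences smaller than these intervals could not be resolved with this number of arrays.

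**Figure D1:**
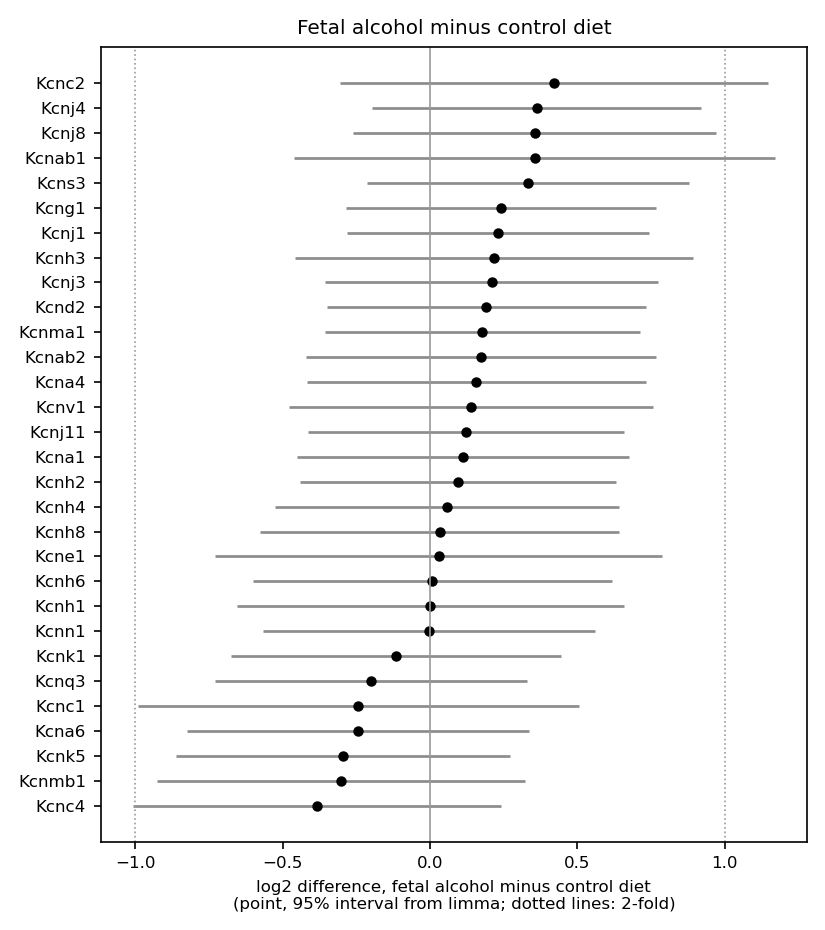
Log2 difference of fetal alcohol minus control diet (x axis) for the 30 potassium channel genes above the filter (y axis), as a point with its 95% interval from the fit; dotted lines mark a 2-fold change. All 30 intervals cross 0, and 27 lie inside the dotted lines.

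A positive difference was seen in 22 of the 30 genes (73.3%), against 52.4% of all genes tested, and the median was 0.12 against 0.01. With the mean over all probe sets of a gene in place of the brightest, the channel median was 0.02, and with no filter it was 0.04 over the 54 genes. The sign of the difference changed for 16 of the 30 genes in at least 1 alternative that tested them, most often with 1 array left out. The SD of the channel genes' median between arrays of 1 group was 0.091. In 5 genes (16.7%) both fetal alcohol arrays lay above both control diet arrays, against 17.6% of all genes, and in 4 (13.3%) both lay below, against 16.8%. The 5 were Kcns3, Kcng1, Kcnj1, Kcnj4 and Kcnma1, and the 4 were Kcna6, Kcnc4, Kcnq3 and Kcnk5. None of the 9 had means at least 1.5-fold apart. Among all genes 1.20% were apart and higher by this much and 3.21% lower.

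Arrays of 1 group also differed from each other in these genes. The folds given here are ratios of single-array intensities without the offset. They are therefore not on the scale of the log2 differences of group means above. Over the 30 genes the median fold between the control diet arrays was 1.26 and the largest 2.30, for Kcne1. Between the fetal alcohol arrays the median was 1.28 and the largest 2.50, for Kcnab1. Over all 5 arrays the highest value was 1.23 times the lowest for Kcnh2, the steadiest gene, 1.60 times at the median and 2.52 times for Kcnab1 and Kcnc2. With 1 array left out the log2 difference of fetal alcohol from control diet was -0.68 to 0.20 for Kcnc1. It was -0.71 to -0.06 for Kcnc4, -0.59 to -0.01 for Kcnmb1, 0.18 to 0.87 for Kcnab1 and 0.05 to 0.79 for Kcnc2. Kcnab1 and Kcnc2 fell under the filter without fetal alcohol array 2, so their ranges lack that fit. In Kcnab1 fetal alcohol array 1 (24.7) lay between the control diet arrays (33.9 and 24.5), so its sign is not shown to hold. A fit with 1 array left out leaves 1 array in a group, which meets non-overlap more easily, so no count by size is given for it.

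**Figure D2:**
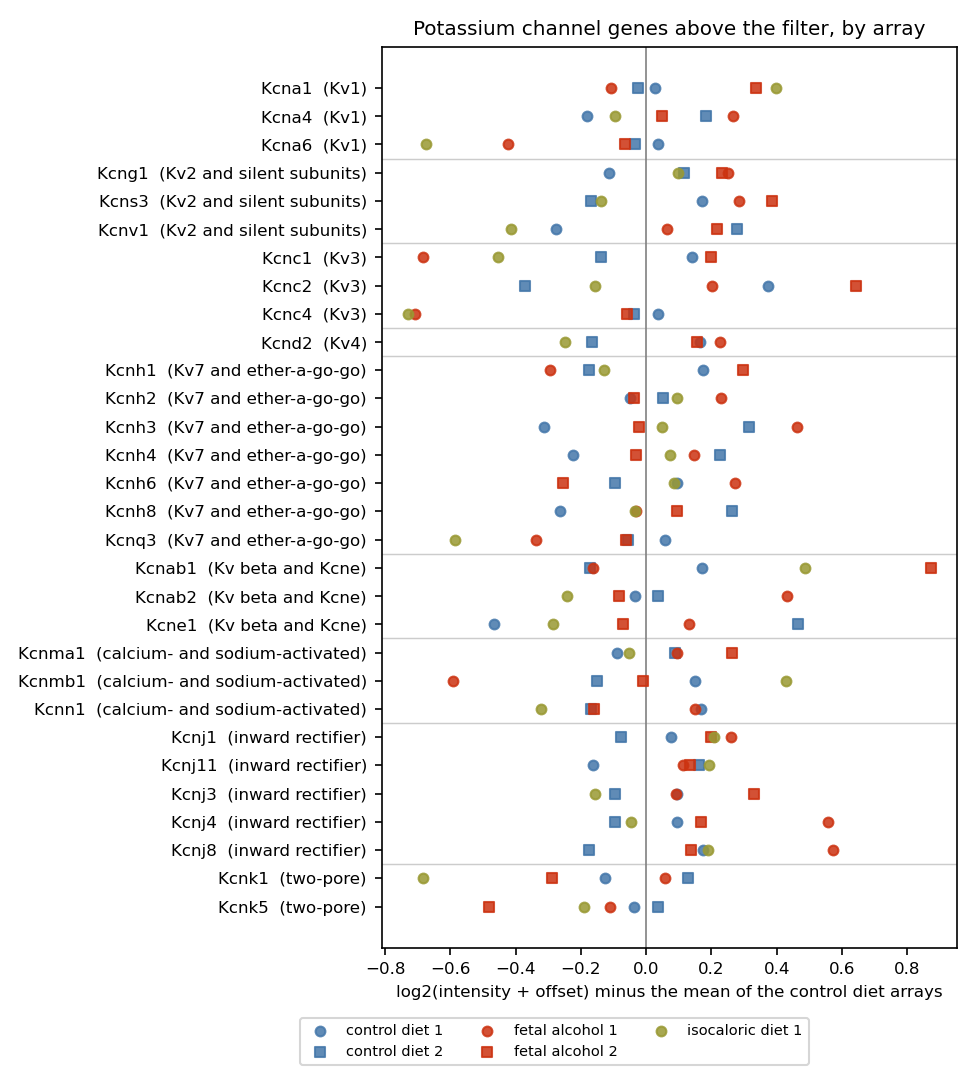
Each array's log2(intensity + offset) minus the mean of the control diet arrays (x axis) for the 30 genes above the filter (y axis, with their role in parentheses); colour gives the group, circles array 1 and squares array 2. Control diet and fetal alcohol points overlap in 21 genes. The isocaloric point is the lowest in 9 genes, Kcna6, Kcnc4, Kcnq3 and Kcnk1 among them, and that of control diet array 1 in 9.

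Promoter sequence is shown for 4 genes whose fetal alcohol arrays did not overlap the control diet arrays, a pair from each direction, so that a reader can set the windows side by side. The windows run from 250 bases before to 50 bases after the gene start in RefSeq (build GRCr8): Kcnc4 at chr2:197788384-197788683 on the minus strand, Kcna6 at chr4:161262303-161262602 on the minus strand, Kcnj4 at chr7:112954498-112954797 on the minus strand and Kcns3 at chr6:39584056-39584355 on the minus strand. Each is written 5′ to 3′ on the gene's strand, and capitals mark a GC box (GGGCGG, either strand).
Kcnc4: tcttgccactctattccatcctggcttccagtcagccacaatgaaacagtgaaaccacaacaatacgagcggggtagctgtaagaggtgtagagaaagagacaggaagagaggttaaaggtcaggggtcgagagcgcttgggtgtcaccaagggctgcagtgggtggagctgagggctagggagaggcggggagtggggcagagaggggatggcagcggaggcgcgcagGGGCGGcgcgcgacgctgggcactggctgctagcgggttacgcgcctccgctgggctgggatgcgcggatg
Kcna6: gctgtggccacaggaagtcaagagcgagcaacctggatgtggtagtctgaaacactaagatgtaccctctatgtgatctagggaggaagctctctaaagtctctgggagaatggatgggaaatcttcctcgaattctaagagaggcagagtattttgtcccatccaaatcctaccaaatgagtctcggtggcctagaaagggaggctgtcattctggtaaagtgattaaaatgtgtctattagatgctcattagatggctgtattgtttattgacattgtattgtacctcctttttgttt
Kcnj4: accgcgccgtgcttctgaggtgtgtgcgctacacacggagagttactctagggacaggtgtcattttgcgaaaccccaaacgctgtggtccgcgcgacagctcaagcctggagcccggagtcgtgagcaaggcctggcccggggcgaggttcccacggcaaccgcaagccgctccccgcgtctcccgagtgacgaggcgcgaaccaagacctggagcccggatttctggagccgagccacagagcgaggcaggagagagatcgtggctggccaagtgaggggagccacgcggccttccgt
Kcns3: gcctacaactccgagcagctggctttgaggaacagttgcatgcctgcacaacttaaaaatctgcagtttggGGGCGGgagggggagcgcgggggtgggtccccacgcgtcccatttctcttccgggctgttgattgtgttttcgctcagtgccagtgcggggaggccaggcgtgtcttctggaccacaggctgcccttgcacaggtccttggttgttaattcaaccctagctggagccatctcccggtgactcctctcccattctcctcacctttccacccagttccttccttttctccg
The windows of Kcnc4 and Kcns3 each hold 1 GC box, and those of Kcna6 and Kcnj4 hold none. A TATA box (TATAAA) and a cAMP response element (TGACGTCA), searched on both strands, are in none of the 4. The Kcna6 window has 43% G and C and 3 CpG pairs, that of Kcnj4 65.7% and 30. Of the 54 genes 40 had a window in the table. A GC box was in 20 of these (50%), against 34.9% of 27457 promoters, a TATA box in 5% against 14.3% and a cAMP response element in 0% against 1.91%. The 40 windows had a median of 62% G and C and 18.5 CpG pairs, against 52.3% and 7 over all promoters. The part of this base composition in the motif shares was not tested. These letters are a description of the windows and do not show binding. Kcnk1, Kcnk3 and Kcnq3 had no window there.

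Among the Kv1 genes, the shaker-type subunits of axons, 3 of 6 were tested. Kcna1 measured 70.4 and 67.5 with control diet, 63.2 and 89.8 after fetal alcohol and 94.3 with isocaloric diet. The fetal alcohol arrays lay on either side of the control diet arrays, with a log2 difference of 0.11 ± 0.25 (SE). Kcna4, an inactivating Kv1 subunit, measured 38.8 and 52.9, then 56.7 and 47.3, then 41.7 in the same order, which overlapped between the groups (0.16 ± 0.25). Kcna6 measured 43.8 and 41.2, then 29.0 and 40.2, then 22.6, and both fetal alcohol arrays were below the control diet arrays, the second by little (-0.24 ± 0.25, adjusted p = 0.965). A dimmer Kcna6 probe set, under the filter, gave -0.53 between the same groups, with 18.8 and 16.4 against 7.07 and 10.9.

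Kv3 genes are expressed in fast-firing neurons, and all 3 were tested. Kcnc4 measured 96.3 and 90.9 with control diet, 53.1 and 89.4 after fetal alcohol and 52.1 with isocaloric diet. The low values were those of fetal alcohol array 1 and the isocaloric array, while fetal alcohol array 2 lay just under the control diet arrays. The log2 difference of fetal alcohol from control diet was -0.38 ± 0.27 (adjusted p = 0.962), and from -0.71 to -0.06 with 1 array left out. Kcnc1 was low on the same pair of arrays, with 48.4 and 38.0, then 22.8 and 50.9, then 28.5 (-0.24 ± 0.33), and fetal alcohol array 2 was its highest. Kcnc2 did not: its probe set M84203_s_at measured 43.6 and 21.7, then 37.5 and 54.8, then 26.9. Its groups overlapped at a difference of 0.42 ± 0.32 (adjusted p = 0.965), and 3 dimmer Kcnc2 probe sets under the filter gave 0.27, -0.07 and -0.10. The excitatory neuron transcription factor genes Neurod1 (241 and 251, 109 and 221, 126) and Neurod2 (185 and 150, 83.8 and 110, 88.0) were also lowest on fetal alcohol array 1 and the isocaloric array. The other measured markers of the list did not follow this order: Camk2a measured 40.6 and 12.0, then 31.5 and 36.8, then 8.17, and Slc17a7 3.55 and 5.72, then 3.15 and 3.78, then 4.97. The part of these markers in the Kv3 values was not tested.

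Kcnd2, the Kv4.2 subunit of dendrites, measured 151 and 118 with control diet, 158 and 150 after fetal alcohol and 111 with isocaloric diet. The groups overlapped, with a difference of 0.19 ± 0.24, and its second probe set gave 0.04 ± 0.25. Kcnd3 stayed under the filter at 3 probe sets, whose differences of -0.29, 0.31 and -0.18 had no common sign. Of the silent subunits, which form channels only together with Kv2 subunits, Kcns3 measured 68.9 and 52.2, then 75.4 and 81.7, then 53.6. Both fetal alcohol arrays were above both control diet arrays and the isocaloric array (0.33 ± 0.24, adjusted p = 0.962 against control diet). Kcng1 had 50.9 and 61.4, then 68.6 and 67.5, then 60.5, again with no overlap (0.24 ± 0.23). Kcnv1 measured 35.6 and 57.2, then 47.8 and 54.4, then 31.3, so its fetal alcohol arrays lay between the control diet arrays (0.14 ± 0.27).

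The Kv7 and ether-a-go-go families had 7 of 10 genes tested, with a median difference of 0.03. Kcnq3, a subunit of the M-current channel, measured 99.5 and 91.2 with control diet, 73.2 and 90.7 after fetal alcohol and 59.9 with isocaloric diet. Its fetal alcohol arrays were below the control diet arrays, array 2 by less than 1 unit, and the difference was -0.20 ± 0.23 (adjusted p = 0.965). Kcnh2, the ERG channel, was steady at 167 and 180, then 205 and 169, then 186 (0.10 ± 0.23). Kcnh3, an ELK channel of the forebrain, overlapped with 322 and 503, then 559 and 396, then 417 (0.22 ± 0.29). The other 4, ether-a-go-go subunits as well, had differences of 0.00 to 0.06. Kcnh1 measured 48.7 and 36.0, then 32.3 and 53.9, then 37.5. Kcnh4 measured 43.8 and 63.8, then 59.8 and 51.7, then 56.3. In these, in Kcnh6 (39.4 to 61.5 over the 5 arrays) and in Kcnh8 (33.5 to 53.0) the 2 groups overlapped.

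The beta subunits bind Kv1 channels inside the cell. Kcnab2 measured 223 and 235 with control diet, 313 and 216 after fetal alcohol and 192 with isocaloric diet, with overlap (0.17 ± 0.26). Kcnab1 measured 33.9 and 24.5, then 24.7 and 61.7, then 44.8, so its difference of 0.36 ± 0.36 came from fetal alcohol array 2 alone. Kcne1, an accessory subunit, measured 24.2 and 55.7, then 42.0 and 35.1, then 28.8. The control diet arrays were its lowest and highest, and the difference was 0.03 ± 0.33.

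Of the calcium-activated channels, Kcnma1, the pore of the large-conductance BK channel, measured 47.1 and 54.6, then 54.8 and 63.1, then 48.6. The lower fetal alcohol value was within 1 unit of the higher control diet value (0.18 ± 0.23). Its accessory subunit gene Kcnmb1 measured 146 and 116 with control diet, 82.7 and 129 after fetal alcohol and 179 with isocaloric diet. Fetal alcohol array 1 was low and array 2 lay between the control diet arrays (-0.30 ± 0.27, adjusted p = 0.965). A dimmer Kcnmb1 probe set, under the filter, gave 0.17, with 19.0 and 17.2 against 16.3 and 27.9. Kcnn1, a small-conductance channel, measured 112 and 86.3, then 110 and 86.9, then 76.5, which overlapped, with a difference of -0.00 ± 0.25.

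All 5 inward rectifier genes tested, of 15 on the array, had a positive difference, with a median of 0.23 at the brightest probe set, and none passed. For Kcnj11 the sign rests on that choice: its mean over both probe sets above the filter was -0.22. Under the filter, a dimmer Kcnj3 probe set gave -0.26 and a dimmer Kcnj1 probe set 0.33. Kcnj4, the Kir2.3 subunit, measured 80.8 and 69.6 with control diet, 115 and 85.5 after fetal alcohol and 72.3 with isocaloric diet. Both fetal alcohol arrays were above the control diet arrays, with a difference of 0.36 ± 0.24 (adjusted p = 0.961) and 0.27 ± 0.26 at a second probe set. Kcnj8, a pore subunit of ATP-sensitive channels in vessels, measured 40.5 and 29.6, then 56.8 and 39.3, then 41.0. Its groups overlapped (0.36 ± 0.27). Kcnj1, known from the kidney, had 76.1 and 67.3, then 87.8 and 83.7, then 84.2 (0.23 ± 0.22). Kcnj11, the other pore subunit of ATP-sensitive channels, had 101 and 129, then 124 and 126, then 132 (0.12 ± 0.23). Kcnj3, a GIRK subunit, had 38.1 and 32.2, then 38.0 and 46.8, then 30.4 (0.21 ± 0.25), and both overlapped.

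Two-pore channels set the leak at rest. Kcnk1 overlapped between fetal alcohol and control diet (133 and 160, then 152 and 118, then 86.8; -0.11 ± 0.24). Kcnk5 measured 50.1 and 53.2, then 47.0 and 34.0, then 43.9, below control diet on both fetal alcohol arrays (-0.30 ± 0.25, adjusted p = 0.965). Kcnk3, the acid-sensitive TASK-1 channel, lay under the filter and is named because its values stood out. Probe set AF031384_at measured 40.01 and 27.9 with control diet, 9.40 and 11.3 after fetal alcohol and 10.8 with isocaloric diet. The 3 arrays of the other diets were all below both control diet arrays, near the offset. The log2 difference of fetal alcohol from control diet was -1.07, and with the filter lowered to the 20th percentile the fit gave it an SE of 0.25 and an adjusted p of 0.642. It was the 1 channel gene of 44 at that filter that was apart by at least 1.5-fold, and among the 4037 genes at that filter 3.62% were lower and 1.66% higher by this much. A second Kcnk3 probe set was between 3.23 and 4.27 on all arrays, with a difference of -0.01.

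The other genes under the filter were left out of the fit and are given as levels. In fits with a lower filter (14 of the 24 at the 20th percentile) or none (all 24) no gene of the 24 passed for fetal alcohol minus control diet (smallest limma adjusted p 0.642 and 0.668, both for Kcnk3). Kcnb2, a Kv2 subunit of the delayed rectifier, was steady at 34.4 and 33.7 with control diet, 33.2 and 29.5 after fetal alcohol and 29.7 with isocaloric diet. Kcns1, a silent subunit, measured 29.0 and 19.5, then 16.7 and 9.70, then 23.6, lower on both fetal alcohol arrays than on the other 3 (-0.55 ± 0.27 with the filter at the 20th percentile, limma adjusted p = 0.898). Kcnj15 measured 51.8 and 11.5, then 15.3 and 13.8, then 19.4, so only control diet array 1 was high. Kcnj10, the Kir4.1 channel of astrocytes, measured 28.2 and 20.8, then 21.5 and 29.4, then 32.3, which overlapped. Kcnj12, a Kir2 subunit, measured 22.4 and 20.7, then 24.5 and 23.4, then 12.5, with the isocaloric array alone low. Kcnd3 measured 39.7 and 22.5, then 6.15 and 55.7, then 25.8 at its brightest probe set, and the fetal alcohol arrays were its lowest and highest. The GIRK gene Kcnj5 (18.7 to 35.2 over the 5 arrays), Kcnj14 (21.2 to 31.7), Kcnj16 (24.5 to 36.3), the silent subunit gene Kcnf1 (22.7 to 38.9), Kcna5 (16.6 to 18.9), Kcnh5 (26.0 to 34.8) and Kcnh7 (17.9 to 27.6) varied less than Kcnd3, Kcnj15 and Kcnk3, and Kcnn3 ran from 2.93 to 11.8.

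In 5 of the 8 genes with a pair of probe sets above the filter, the pair differed in sign for fetal alcohol minus control diet. The widest gap was that of Kcnj11, whose probe sets share 1 accession: D86039_at gave 0.12 ± 0.23, while D86039_g_at measured 68.8 and 72.5 with control diet, 39.4 and 50.2 after fetal alcohol and 61.5 with isocaloric diet, a difference of -0.56 ± 0.24. That probe set had the 1 unadjusted p under 0.05 among the 38 potassium channel probe sets tested (0.0439, adjusted p = 0.875 in limma). Kcnh3 gave 0.22 ± 0.29 and -0.33 ± 0.22, Kcnma1 0.18 ± 0.23 and -0.30 ± 0.31, Kcnab2 0.17 ± 0.26 and -0.18 ± 0.27, and Kcnh2 0.10 ± 0.23 and -0.22 ± 0.24. Kcnd2, Kcnj1 and Kcnj4 had the same sign at both. The second Kcnj1 probe set measured 24.6 and 53.2, then 76.1 and 51.2, then 76.4, so that control diet array 1 alone was low (0.63 ± 0.33). Which probe set of a pair follows the transcript more closely was not tested.

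**Figure D3:**
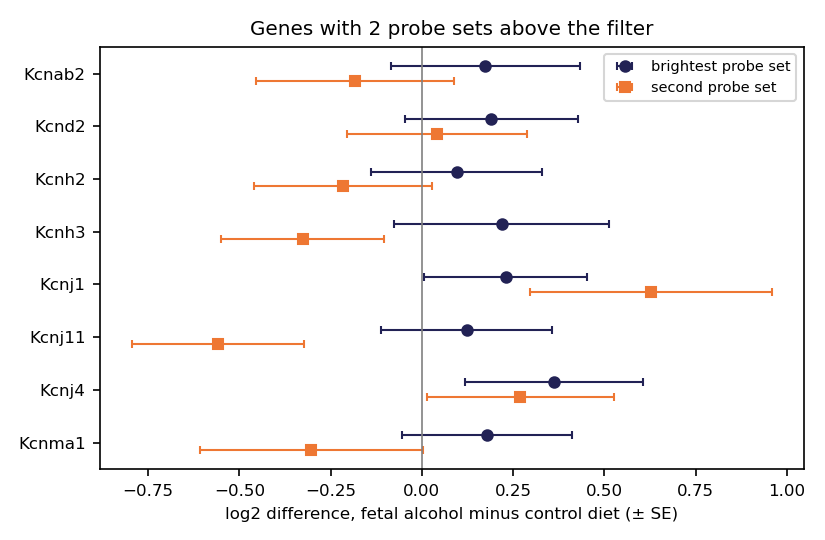
Log2 difference of fetal alcohol minus control diet (x axis) with its SE for the 8 genes that have 2 probe sets above the filter (y axis); circles are the brightest probe set and squares the second. The pair lies on opposite sides of 0 for Kcnab2, Kcnh2, Kcnh3, Kcnj11 and Kcnma1.

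Isocaloric minus control diet sets the feeding control, on 1 array, against 2 arrays. Here 4 of the 30 genes (13.3%) were below both control diet arrays by at least 1.5-fold and 0 above, against 7.12% and 3.50% of all genes tested. The 4 were Kcnc4 (log2 difference, isocaloric minus control diet, -0.73 ± 0.33), Kcnk1 (-0.68 ± 0.30), Kcna6 (-0.68 ± 0.31) and Kcnq3 (-0.59 ± 0.28), with limma adjusted p-values of 0.744, 0.729, 0.745 and 0.784. For Kcnc4, Kcna6 and Kcnq3 fetal alcohol array 1 was also low, and for Kcnk1 both fetal alcohol arrays were nearer to control diet. All 3 Kv3 genes were negative, with a median of -0.45, as were both two-pore genes, while the 7 Kv7 and ether-a-go-go genes had a median of 0.05. The median over the 30 genes was -0.11, with 19 negative, against 0.03 over all genes. Kcnab1 (0.49 ± 0.44), Kcnmb1 (0.43 ± 0.33) and Kcna1 (0.40 ± 0.30) had the highest differences. The dimmer Kcnmb1 probe set went the other way, with 9.76 on the isocaloric array against 19.0 and 17.2 (-0.50). No channel gene had an unadjusted p under 0.05, against 5.83% of all genes, and 0% of all probe sets passed the adjusted threshold. The count of 4 was 0 with an offset of 50 and 2 among the 10 genes at or above the 60th percentile. It was 5 among the 44 genes at or above the 20th percentile, where Kcnk3 was added (-1.04). With 1 array left out the difference was -0.77 to -0.69 for Kcnc4 and -0.71 to -0.68 for Kcna6. It was -0.81 to -0.56 for Kcnk1 and -0.64 to -0.53 for Kcnq3, which did not keep a 1.5-fold change in every fit. The Kcna6 range lacks the fit without control diet array 1, where this gene fell under the filter. The isocaloric array then stood at 22.6 against 41.2 on control diet array 2. Without 1 control diet array, single arrays are compared and any difference is free of overlap, so no count by size is given. With quantile normalization the median was -0.05 and 3 genes were lower by size. This comparison and the first share their control diet arrays, so their values are given side by side and not related to each other.

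**Figure D4:**
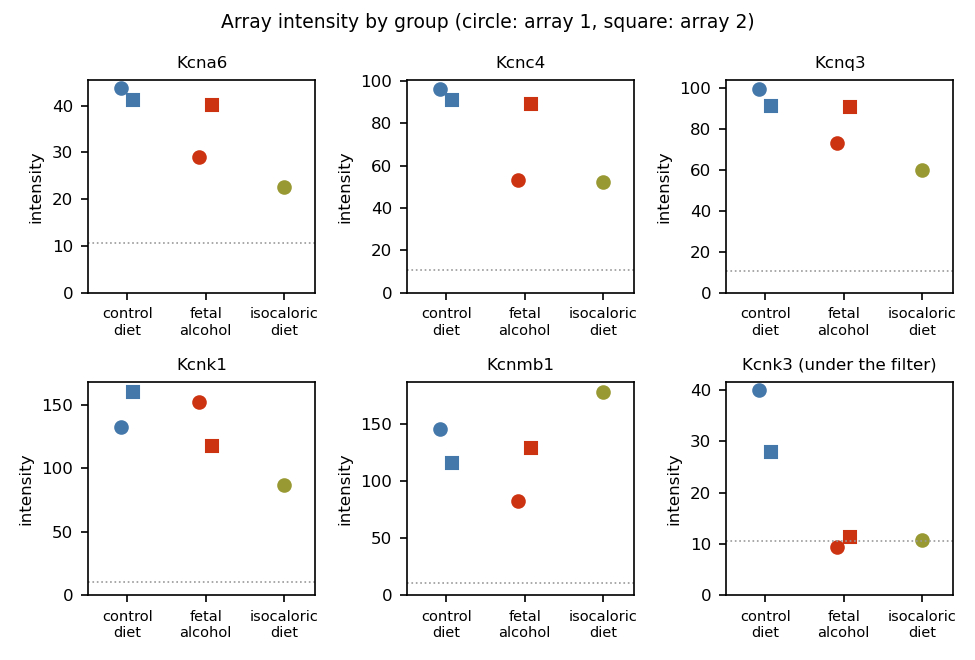
Intensity (y axis, linear from 0) on each array by group (x axis) for 6 genes, each at its brightest probe set. Circles are array 1, squares array 2, and the dotted line is the offset of 10.6. For Kcna6, Kcnc4 and Kcnq3 the isocaloric array is lowest and fetal alcohol array 1 next, for Kcnmb1 the isocaloric array is highest, and for Kcnk3 both control diet arrays stand above the other 3.

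Between fetal alcohol and isocaloric diet, a comparison with the feeding control on 1 array, 22 of the 30 channel genes had a positive difference. This was 73.3%, against 48.7% of all genes, and the median was 0.22 against -0.01. The same isocaloric array served in isocaloric minus control diet, so the shifts in these comparisons are not separate observations. With no filter the median over 54 genes was 0.066, and 0.35 over the 10 genes at or above the 60th percentile. By size, 0 genes were apart and at least 1.5-fold higher, against 4.28% of all genes, and 1 (3.33%) was lower, against 3.47%. That gene was Kcnmb1, with 82.7 and 129 after fetal alcohol against 179 (fetal alcohol minus isocaloric -0.73 ± 0.33, limma adjusted p = 0.998). The dimmer Kcnmb1 probe set, under the filter, went the other way, with 16.3 and 27.9 against 9.76 (0.66). At the brightest probe sets the next differences were those of Kcnc2 (0.58 ± 0.39), Kcnk1 (0.57 ± 0.30), Kcnv1 (0.55 ± 0.33), Kcns3 (0.47 ± 0.29) and Kcnd2 (0.44 ± 0.29). An unadjusted p under 0.05 was found for 0 channel genes, against 3.91% of all genes, and 0% of all probe sets passed. With 1 array left out the difference was -1.02 to -0.44 for Kcnmb1, 0.58 to 0.80 for Kcnc2 and 0.40 to 0.74 for Kcnk1. The Kcnc2 range lacks the fit without fetal alcohol array 2, where this gene fell under the filter. Its lower end, 0.58, is the difference with both fetal alcohol arrays in. Fetal alcohol array 1 alone stood nearer to the isocaloric array, at 37.5 against 26.9. Without 1 fetal alcohol array, single arrays are compared and any difference is free of overlap, so no count by size is given.

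Genes that work with these channels were taken from a list of channel partners, receptors and G proteins that gate GIRK and M-current channels, and potassium and chloride transporters. Of the 65 listed genes 34 were tested. None passed for fetal alcohol minus control diet in limma (smallest adjusted p = 0.788), while 1 was higher and 3 lower at an unadjusted p under 0.05, a level that 4.73% of all genes reached in either direction. Slc12a4, the potassium-chloride cotransporter KCC1, measured 92.5 and 114 with control diet, 63.4 and 61.6 after fetal alcohol and 78.9 with isocaloric diet, below control diet without overlap (-0.63 ± 0.23). Gabbr1, a GABA-B receptor subunit that opens GIRK channels, measured 997 and 944, then 551 and 725, then 269, so the isocaloric array was lowest (-0.61 ± 0.24 for fetal alcohol minus control diet). Fxyd1, a regulator of the sodium pump also abundant in choroid plexus, had -0.57 ± 0.24, and Sstr2, a somatostatin receptor, 0.56 ± 0.24. The partner list had a median of 0.06 with 19 of 34 positive. By size 2 of the 34 (5.88%) were apart and lower, Slc12a4 and Gabbr1, against 3.21% of all genes, and 0 higher, against 1.20%. For isocaloric minus control diet its median was -0.11, with 24 of 34 negative, against 0.03 over all genes, and 5 were lower by size (14.7%, against 7.12% of all genes).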

How the data were processed

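The 5 samples of rat hippocampus were each measured on 1 single-colour array of 8799 probe sets. The deposited values are intensities on a linear scale. The software and scaling by which the authors made them are given neither in the labels nor in a file header. Trimmed means of the deposited intensities, without the lowest and highest 2%, were 149.996 on every array, so they were used as deposited. Intensities of the 8740 probe sets that are not controls became log2(intensity + 10.6), which understates differences of dim probe sets. The 5244 probe sets at or above the 40th percentile of mean log2 value went into one linear model per probe set (limma 3.58.1 in R 4.3.3; lmFit, eBayes with an intensity trend, 2-sided), with Benjamini-Hochberg adjustment over all of them and 0.05 as the threshold. Residual degrees of freedom were 2 and prior ones 6.30, and the isocaloric array was assumed to vary like the others. Precision is limited by how few arrays there are. The model fit was tested on simulated data with the same spread for every probe set and shifts larger than any channel difference given here. That test does not show how well differences of the size found here would be detected.

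A gene was counted as apart by size where the arrays of the groups did not overlap and the means differed by at least 1.5-fold. Gene symbols came from GEO's platform annotation, and for none of the 82 probe sets did the current RefSeq table hold a different symbol. The gene was represented by its probe set with the highest mean log2 value. Genes given with all arrays follow a rule: those apart by size or with the smallest p in each comparison, the steadiest of each role, every Kcnd and Kcnq gene tested and those with a pair of probe sets. Kcnk3, the 3 genes with wide intervals and a few others were added after their values were seen. Members and lists were chosen with earlier results of these data known. Alternatives covered normalization, offset, filter, variance trend, probe set choice, left-out arrays and the replicate number as a block. No value column lacked a sample.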

Additional observations from a re-analysis of the deposited data

How the results depend on the processing

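No potassium channel gene passed the adjusted threshold in limma under any alternative that was refitted. The count over all probe sets for fetal alcohol minus control diet, 0 as reported, was 1 with quantile normalization, 9 with equal medians, 1 with an offset of 50 and 0 to 22 with 1 array left out; for fetal alcohol minus isocaloric it was 3 with quantile normalization, 3 with equal medians and 0 to 22, and for isocaloric minus control diet 0 to 14. Channel genes apart by size numbered 1 for fetal alcohol minus control diet with no filter or the filter at the 20th percentile (Kcnk3). No count by size is given with 1 array left out, since single arrays meet non-overlap more easily. For fetal alcohol minus isocaloric the count of 1 became 4 with an offset of 1 and 0 with an offset of 50, and 1 to 5 with 1 array left out. For isocaloric minus control diet the count of 4 became 0 with an offset of 50 and 2 for genes at or above the 60th percentile. It was 5 with no filter or the filter at the 20th percentile, where Kcnk3 was added. With an offset of 1 there were 4 lower and 1 higher, Kcnab1. The channel median for fetal alcohol minus control diet was 0.019 with the mean over probe sets. For fetal alcohol minus isocaloric it was 0.066 with no filter and 0.35 for genes at or above the 60th percentile. For fetal alcohol minus control diet 14 of the 30 channel genes kept their sign in all alternatives that tested them and 16 did not. With the mean over probe sets the difference was -0.0051 for Kcnab2, -0.061 for Kcnh2, -0.054 for Kcnh3, -0.22 for Kcnj11 and -0.063 for Kcnma1. Kcnn1 became 0.0080 with quantile normalization and 0.037 with equal medians, Kcnh1 -0.0039 with an offset of 1 and Kcne1 -0.0011 with an offset of 50. With 1 array left out the differences that changed sign ran as follows: Kcna1 -0.11 to 0.34, Kcna4 -0.025 to 0.34, Kcnab2 -0.085 to 0.43, Kcnc1 -0.68 to 0.20, Kcne1 -0.44 to 0.13, Kcnh1 -0.29 to 0.30, Kcnh2 -0.036 to 0.23, Kcnh3 -0.10 to 0.53, Kcnh4 -0.17 to 0.28, Kcnh6 -0.26 to 0.27, Kcnh8 -0.23 to 0.30, Kcnj11 -0.039 to 0.29, Kcnk1 -0.29 to 0.059, Kcnn1 -0.17 to 0.16 and Kcnv1 -0.14 to 0.42. These ranges hold only the fits in which a gene stayed above the filter. Kcne1 fell under it without control diet array 2, where fetal alcohol measured 42.0 and 35.1 against 24.2. Kcnab1 fell under it without fetal alcohol array 2 and so is not in this list. Its fetal alcohol array 1 (24.7) lay between the control diet arrays (33.9 and 24.5). For the genes named in the other comparisons no sign changed in the fits that tested them. The causes were not tested, apart from the number of genes that a filter admits. With the replicate block 6 probe sets passed for fetal alcohol minus control diet, none of them of a channel gene, and the channel median was 0.12 as without it. Arrays of the same number deviated from their group means with a correlation of -0.113, which for a single pair of pairs does not show whether the numbers pair the samples. Dim signal limits the 24 genes under the filter.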
